A study of Mus musculus with 2 samples.

Results

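The 10 genes described here, Ccna2, Ccnb1, Ccnb2, Ccnf, Plk1, Aurka, Aurkb, Cdc20, Cdc25c and Ube2c, encode the mitotic cyclins, the kinases and phosphatase that drive a cell into and through mitosis, and the activator and ubiquitin-conjugating enzyme of the anaphase-promoting complex (APC/C). They were chosen by name, as the noncontrol probes of the array that carry these gene names, and gave 13 probes for 10 of the 27665 named genes on the array. RNA came from CD4 T cells that a cell sorter had taken out of spleen cultures of female OVA-TCR-Tg mice, whose transgenic T cell receptor recognises ovalbumin (OVA). In the co-culture, splenocytes that had first been stimulated with 0.1 μg/mL of the bacterial superantigen TSST-1, which the labels call anergic, were mixed with an equal number of fresh splenocytes and given 0.1 mg/mL OVA for 24 h. In the naive-only culture, fresh splenocytes at 2500000 cells/mL received OVA for the same 24 h. With 1 single-colour array in each group, differences could not be checked across replicates or tested, and the labels give neither the age nor the number of mice. The labels do not say that the sort parted fresh from pre-stimulated CD4 T cells, so RNA of both may be on the co-culture array. In such bulk RNA, more cells in mitosis and more of a transcript per cell cannot be told apart.

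Entry into mitosis depends on CDK1 bound to A- and B-type cyclins, whose messages build up in G2 and are cleared after division. Polo-like kinase 1 and the Aurora kinases shape the spindle and the chromosome attachments, and the APC/C, switched on by Cdc20 and supplied with ubiquitin by Ube2c, then destroys the cyclins so that the cell can leave mitosis. Genes of this group are largely silent in resting T cells and are transcribed late in the cycle once antigen has set the cells dividing. Their promoters are known for CCAAT boxes, bound by NF-Y, and for the cell cycle genes homology region (CHR), through which the MuvB complexes repress them in resting cells and activate them in G2.

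RefSeq promoter windows (GRCm38.p6, 250 bases before to 50 after the annotated start) were matched for 7 of the 10 genes. The 200 bases around the start, 150 before to 50 after, are shown for all 7 because motifs shared by genes that were all higher can be read in them directly. Capitals mark CCAAT boxes, the CHR letters TTTGAA and the CHR variant TTTAAA. A box on the other strand reads ATTGG here, and a CHR on the other strand reads as its reverse complement TTCAAA.
Ccnb1 (chr13:100786437-100786636, minus strand): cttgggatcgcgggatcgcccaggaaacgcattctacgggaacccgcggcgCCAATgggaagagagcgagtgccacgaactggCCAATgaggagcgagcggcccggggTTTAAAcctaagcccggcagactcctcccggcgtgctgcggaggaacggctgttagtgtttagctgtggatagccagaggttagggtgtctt
Ccnb2 (chr9:70421505-70421704, minus strand): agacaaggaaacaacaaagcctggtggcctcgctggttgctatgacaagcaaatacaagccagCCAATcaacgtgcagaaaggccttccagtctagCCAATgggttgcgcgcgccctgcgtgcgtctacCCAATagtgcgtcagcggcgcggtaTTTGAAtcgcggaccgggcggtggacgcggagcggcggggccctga
Ccnf (chr17:24251360-24251559, minus strand): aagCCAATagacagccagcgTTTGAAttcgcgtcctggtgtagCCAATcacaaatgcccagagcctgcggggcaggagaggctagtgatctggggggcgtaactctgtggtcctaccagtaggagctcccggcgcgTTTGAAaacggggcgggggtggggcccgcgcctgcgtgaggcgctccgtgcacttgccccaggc
Plk1 (chr7:122159285-122159484, plus strand): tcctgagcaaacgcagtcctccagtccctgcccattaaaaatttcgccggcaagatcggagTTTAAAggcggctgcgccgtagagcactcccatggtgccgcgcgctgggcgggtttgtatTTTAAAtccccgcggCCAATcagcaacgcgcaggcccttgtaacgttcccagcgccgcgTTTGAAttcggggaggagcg
Aurka (chr2:172370521-172370720, minus strand): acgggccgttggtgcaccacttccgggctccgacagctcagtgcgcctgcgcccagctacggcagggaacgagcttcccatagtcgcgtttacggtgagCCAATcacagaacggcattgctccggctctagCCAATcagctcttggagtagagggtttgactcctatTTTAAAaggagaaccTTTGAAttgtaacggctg
Cdc20 (chr4:118437294-118437493, minus strand): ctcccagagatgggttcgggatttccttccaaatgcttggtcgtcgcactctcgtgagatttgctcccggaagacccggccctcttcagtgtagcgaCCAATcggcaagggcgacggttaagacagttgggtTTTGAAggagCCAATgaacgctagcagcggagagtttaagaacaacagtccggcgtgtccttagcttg
Ube2c (chr2:164769779-164769978, plus strand): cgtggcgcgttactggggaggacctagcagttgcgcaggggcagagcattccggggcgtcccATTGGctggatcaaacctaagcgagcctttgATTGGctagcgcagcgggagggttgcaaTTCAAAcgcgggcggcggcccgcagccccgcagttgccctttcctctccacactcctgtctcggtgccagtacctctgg

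Every one of the 7 windows held CCAAT, against 37.4% of the 32851 promoter windows in the table, and 6 held it 2 or more times, against 11.7%. The letters TTTGAA, searched on both strands, were in 6 of the 7 windows, against 17.9% of all windows. Ccnb1 was the one without them and held TTTAAA instead, a spelling found in 3 of the 7 windows and in 13.2% of all windows. The spelling TTCGAA was in 0 of the 7 windows and in 1.56% of all. In Ccnb1 and Aurka the starts of the 2 CCAAT boxes lay 32 bases apart, and in Ccnb2 the 3 boxes followed each other at 33 and 33 bases. The spacing was 40 bases in Ccnf and 45 in Cdc20. Ube2c held 6 boxes, counting a pair that overlaps on opposite strands, and 4 of the 6 lie further from the start than the stretch shown, as does a second TTTGAA of Ccnb2. Both TTTGAA and CCAAT were in 6 of the 7 windows and in 6.95% of all. A match is a description of letters and not evidence of binding, and the matched members were picked for being mitotic genes, so these shares compare a chosen group with all windows.

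**Figure D1:**
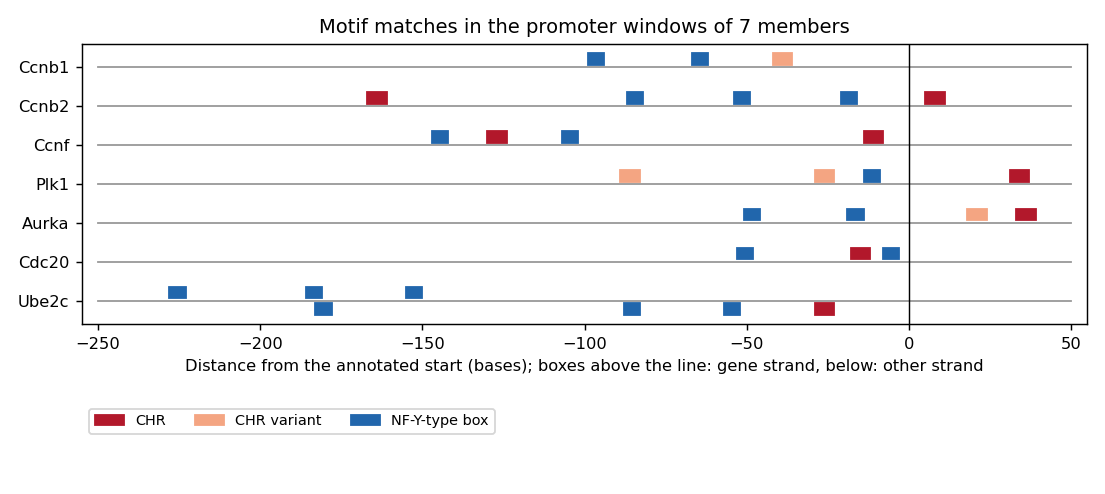
Motif matches in the promoter windows of the 7 members found in RefSeq, by distance in bases from the annotated start (vertical line). Dark red boxes are the CHR letters, light boxes the TTTAAA variant and blue boxes CCAAT, drawn above the line for the gene's strand and below it for the other strand. All 7 windows hold a blue box and 6 hold a dark red one.

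All 10 genes were higher on the co-culture array, from 3.56-fold for Ccnf to 25.5-fold for Ccnb2. Every one of the 13 probes was well above background on both arrays and none was saturated. A gene was counted as higher or lower at 2-fold or more, and by that rule all 10 members were higher, against 7.72% of the 14378 named genes above background on both arrays, while 5.54% were lower. At 4-fold or more, 9 of the 10 were higher, against 2.15% of all measured genes. The median difference of the members was 2.58 (log2, co-culture minus naive-only), or 5.97-fold, beside -0.05 for all measured genes, whose middle 50% lay between -0.37 and 0.33. Errors given after ± are technical, from the scanner software's error model over both arrays, and leave out the spread between cultures and between probes of a gene. They were 0.20 to 0.23 (log2) for the members, against a median of 0.20 for all measured genes.

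**Figure D2:**
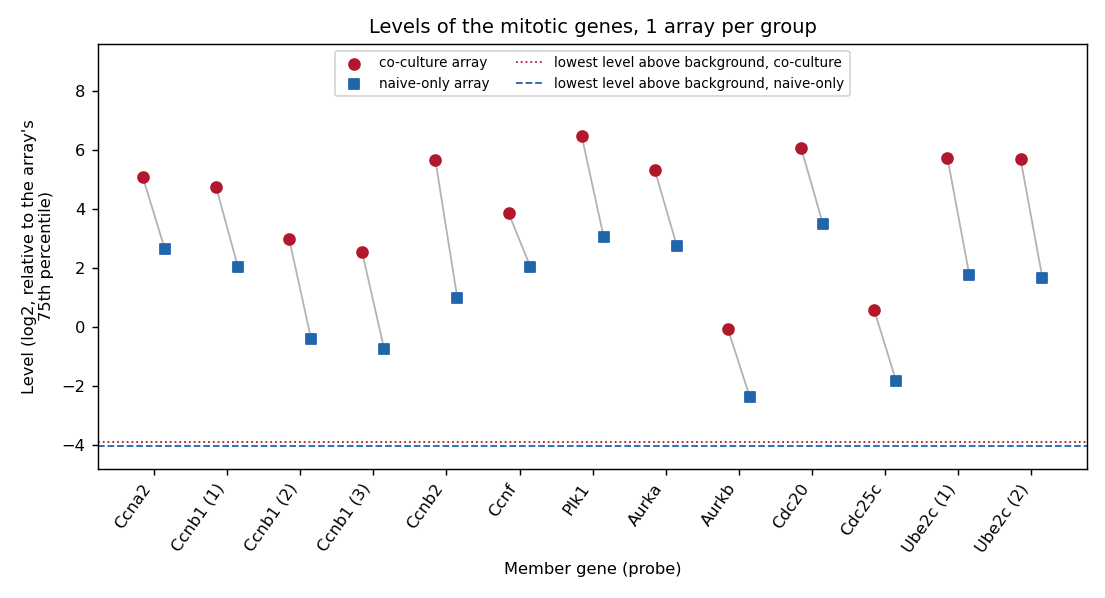
Level of each member probe, in log2 units above the 75th percentile of its array, on the co-culture array (circles) and the naive-only array (squares), with grey lines joining the arrays and horizontal lines at the lowest level called above background on each array. All 13 circles lie above their squares, and Aurkb and Cdc25c lie nearest to the horizontal lines.

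Among the cyclins, the B type had the largest values. Ccnb2, which encodes cyclin B2, an activating partner of CDK1 that sits at the Golgi apparatus, had a processed signal of 15133 intensity units on the co-culture array and 591 on the naive-only array (probe on chromosome 9, 70255671 to 70255730, mm9). Its difference of 4.67 ± 0.20 was the fourth largest of the 14378 measured genes. Ccnb1, which encodes cyclin B1, the main partner of CDK1 at mitotic entry, was read by 3 probes on chromosome 13. Its brightest probe (101548722 to 101548781) had 8186 units on the co-culture array and 1230 on the naive-only array, a difference of 2.73 ± 0.20, or 6.62-fold. The other probes, at 101551224 to 101551283 and 101553449 to 101553508, gave 2405 units in co-culture against 227 in naive-only, and 1737 in co-culture against 177 in naive-only. These were differences of 3.39 ± 0.21 and 3.28 ± 0.21, so the brightest probe gave the smallest value, and the mean over the 3 probes was 3.13 with an SD of 0.36. The gap of 0.67 between the lowest and highest probe exceeded their combined technical error of 0.29. The 60-base oligos of these other Ccnb1 probes are shown because they read the gene at separate places and gave differences of 10.5-fold and 9.74-fold. Each holds 1 reading frame without a stop codon.
Ccnb1 probe (mm9, chr13:101551224-101551283, minus strand): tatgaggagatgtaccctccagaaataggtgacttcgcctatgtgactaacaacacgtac
Ccnb1 probe (mm9, chr13:101553449-101553508, minus strand): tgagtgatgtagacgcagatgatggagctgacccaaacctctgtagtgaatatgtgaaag

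Ccna2 and Ccnf had smaller differences, as reported, than either B-type cyclin. Ccna2, which encodes cyclin A2 and acts from S phase until early mitosis, had 10176 units on the co-culture array and 1874 on the naive-only array (chromosome 3, 36463978 to 36464037). Its difference was 2.43 ± 0.20, or 5.40-fold. Ccnf encodes cyclin F, which binds no CDK and instead selects substrates for the SCF ubiquitin ligase in G2. It had 4397 units in co-culture and 1226 in naive-only (chromosome 17, 24360204 to 24360263), a difference of 1.83 ± 0.20 and the smallest of the 10, though only 2.55% of measured genes had a larger one.

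The 3 mitotic kinases were all higher. Plk1, the polo-like kinase that promotes mitotic entry, spindle assembly and cytokinesis, had 27007 units on the co-culture array and 2502 on the naive-only array (chromosome 7, 129313220 to 129313279). Its difference of 3.42 ± 0.20, or 10.73-fold, was the largest of the kinases. Aurka, the centrosome and spindle pole kinase, had 12043 units in co-culture and 2027 in naive-only (chromosome 2, 172181726 to 172181785), a difference of 2.56 ± 0.20, or 5.91-fold. Aurkb, the kinase of the chromosomal passenger complex, which corrects chromosome attachments, had a low signal on both arrays, with 286 units in co-culture and 57.4 in naive-only (chromosome 11, 68865105 to 68865164). Its difference was 2.31 ± 0.23, or 4.95-fold. Its naive-only level lay 1.65 (log2) above the lowest level called above background there, and normexp background correction gave 2.69-fold.

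The phosphatase and the APC/C cofactors were higher as well. Cdc25c removes the inhibitory phosphates from CDK1. It had 449 units on the co-culture array and 83.5 on the naive-only array (chromosome 18, 34903648 to 34903707), a difference of 2.42 ± 0.22, or 5.35-fold, and 3.50-fold with normexp correction. Cdc20, the activator that lets the APC/C bind its mitotic substrates, had 20313 units in co-culture and 3341 in naive-only (chromosome 4, 118105534 to 118105593), a difference of 2.59 ± 0.20, or 6.04-fold. Ube2c, the E2 enzyme that starts ubiquitin chains on APC/C substrates, was read by 2 probes on chromosome 2. The brighter probe (164598016 to 164598075) had 16201 units in co-culture and 1018 in naive-only, and the other (164597496 to 164597555) had 15655 in co-culture and 945 in naive-only. Their differences of 3.98 ± 0.20 and 4.04 ± 0.20, or 15.8-fold and 16.5-fold, were closer to each other than their technical error.

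Ranked by difference, the order was Ccnb2, Ube2c, Plk1, Ccnb1, Cdc20, Aurka, Ccna2, Cdc25c, Aurkb and Ccnf. The steps from Ccnb2 to Ube2c (0.69), from Ube2c to Plk1 (0.56) and from Plk1 to Ccnb1 (0.70) exceeded their combined technical errors of 0.29 each, as did the last step, from Aurkb to Ccnf (0.47 against 0.31). The other 5 of the 9 steps, from Ccnb1 down to Aurkb, were 0.01 to 0.13 and lay within technical error. Neither the step from Plk1 nor the last one is firm, since the dimmer Ccnb1 probes (3.28 and 3.39) came close to Plk1 (3.42), and with normexp correction Aurkb (1.43) lay below Ccnf (1.81). The 2 steps above Plk1 are not firm either, since the technical error leaves out the spread between probes of a gene. Probes of Ccnb1 differed by 0.67, about as much as these steps, and Ccnb2 and Plk1 had 1 probe each.

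**Figure D3:**
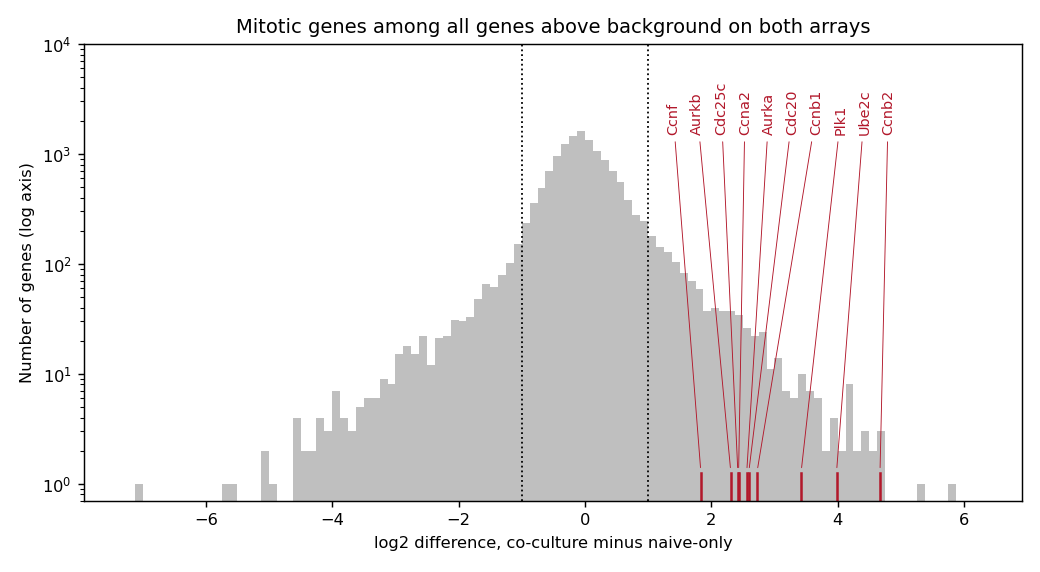
Distribution of log2 differences (co-culture minus naive-only) over the 14378 genes above background on both arrays, with the number of genes on a log axis, dotted lines at 2-fold in either direction and red marks for the 10 members. All 10 marks lie to the right of the upper dotted line, Ccnf at 1.83 nearest to it and Ccnb2 at 4.67 furthest.

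The APC/C core did not share the values of its cofactors. Of the 13 core subunit genes measured, 0 were 2-fold higher and 0 lower, with a median of 0.22 and a range of -0.26 to 0.51, whereas Cdc20 and Ube2c stood at 2.59 and 3.98. Those are values of the brightest probe, and other probes reached 0.79 for Anapc5 and -0.85 for Anapc7, neither past 2-fold. Among brightest probes Cdc27 (0.51 ± 0.20), a subunit that docks the activators, and Anapc11 (0.50 ± 0.20) were level. These 4 genes were named after their values were seen. Another subunit, Anapc10, was above background on neither array. The other cofactors and inhibitors of the APC/C were mixed, with 3 of 6 at least 2-fold higher, 0 lower and a median of 1.06. The higher ones were Bub1b (2.30 ± 0.20), a part of the mitotic checkpoint complex, Fbxo5 (1.74 ± 0.20), which encodes the interphase inhibitor Emi1, and Mad2l1 (1.20 ± 0.20, with its 3 probes between 0.95 and 1.23), another checkpoint protein. Fzr1, which encodes Cdh1, the activator used in mitotic exit and G1, had 0.92 ± 0.20 from its brightest probe and 1.21 from its other, so its place at the 2-fold limit depended on the probe. Ube2s, the E2 that lengthens the chains Ube2c begins, had 0.61 ± 0.20, and Bub3, another checkpoint protein, had 0.12 ± 0.20. Ube2s and Bub3 were named after their values were seen.

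Other proteins that the APC/C destroys were mostly higher too. Of 13 such genes measured, 11 were at least 2-fold higher, 0 were lower, and the median was 1.88. Nusap1, a spindle microtubule protein, had 3.72 ± 0.20, Cdca3, which promotes mitotic entry, 3.48 ± 0.20, and Hmmr, another spindle protein, 3.45 ± 0.20. Pttg1, which encodes securin, the inhibitor of separase, had 2.46 ± 0.20. The 2 that were not 2-fold higher, Gmnn (0.43 ± 0.20, with 1.13 from its other probe) and Skp2 (0.15 ± 0.21), act around DNA replication, as geminin and as an SCF substrate receptor, and were named after their values were seen. Another, Cenpf, exceeded background in the co-culture alone. Its level there was 1.885-fold above the lowest level called above background in naive-only, short of the 2-fold limit. Normexp correction gave a difference of 0.46 (log2). The SCF core that cyclin F uses had small negative values in all 3 genes, Skp1 (-0.48 ± 0.20), Cul1 (-0.52 ± 0.20) and Rbx1 (-0.32 ± 0.20), none of them 2-fold lower. These 3 are the whole list.

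Partners and regulators of CDK1 were divided. Of 11 measured, 5 were at least 2-fold higher, 0 were lower, and the median was 0.74. Cdk1 itself, the catalytic subunit for the cyclins above, had 1.64 ± 0.20, or 3.11-fold. That was below each of the 10 members as reported, though within technical error of Ccnf, and with normexp correction Aurkb (1.43) lay below Cdk1 (1.60). Cdc25b, the phosphatase that first activates CDK1 at the centrosome, had 3.06 ± 0.20, or 8.34-fold, close to the values of the members and above that of Cdc25c. Cdc25a, the third phosphatase, which also acts at the start of S phase, had -0.16 ± 0.20. The opposing kinase genes were split too, with Pkmyt1 at 1.67 ± 0.20 and Wee1 at -0.30 ± 0.20. Mastl, the Greatwall kinase that holds back the phosphatase opposing CDK1, had 1.59 ± 0.21, while the substrates through which it acts, Ensa and Arpp19, had -0.10 ± 0.20 and -0.27 ± 0.22. Cks1b, a small CDK-binding subunit, passed the limit narrowly at 1.03 ± 0.20. Cdc25a, Wee1, Ensa, Arpp19 and Cks1b were named after their values were seen.

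Relatives and partners of the Polo and Aurora kinases were mostly higher, with 9 of 11 measured genes at least 2-fold higher, 0 lower and a median of 1.35. With normexp correction 6 of the 11 passed. Tpx2, which activates Aurora A on the spindle, had 2.84 ± 0.20 from its brightest probe and 1.76 from its other. All 3 partners of Aurora B in the passenger complex were higher, Birc5 (survivin) by 2.44 ± 0.20, Cdca8 (borealin) by 2.10 ± 0.20 and Incenp, named after its value was seen, by 1.90 ± 0.20. Nek2, a centrosome kinase, had 2.55 ± 0.21. Of the Polo relatives, Plk2 had 1.25 ± 0.21 (0.90 with normexp correction), Plk4, which drives centriole duplication, was 2.14-fold higher (a log2 difference of 0.92 with normexp correction), and Plk3 had -0.68 ± 0.20. Aurkc, the Aurora kinase of germ cells, exceeded background in the naive-only culture alone. Its level was 1.67-fold lower in co-culture as reported, and the difference was -0.20 (log2) with normexp correction. Plk2, Plk3, Plk4 and Aurkc are named here after seeing their values.

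**Figure D4:**
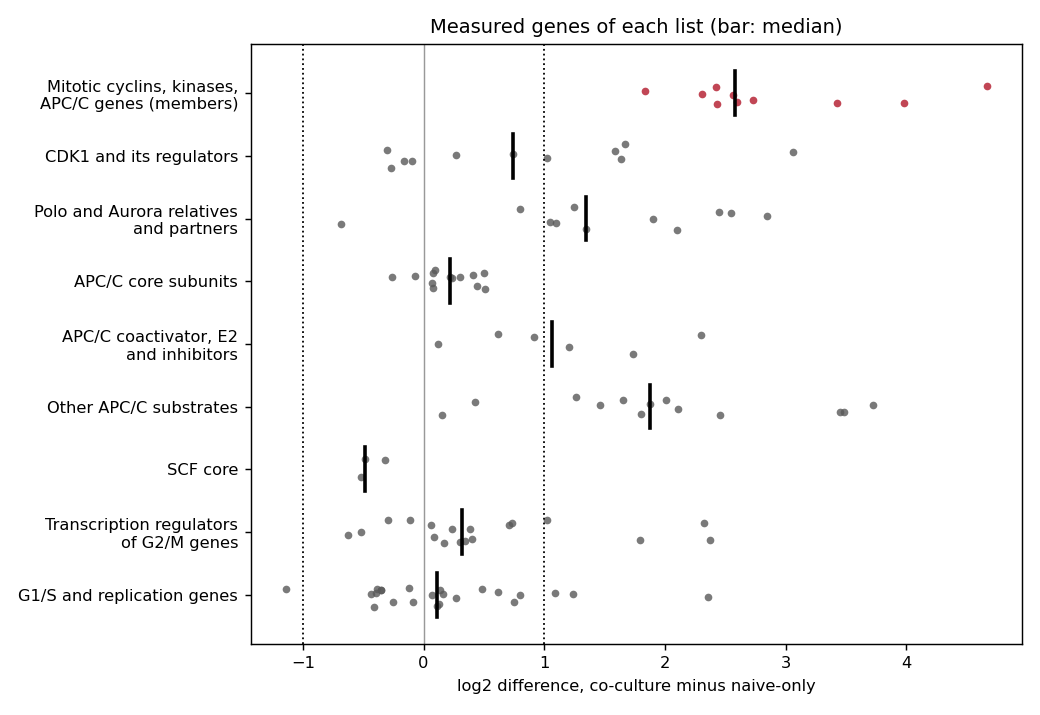
log2 difference (co-culture minus naive-only) of every measured gene in each list, 1 point a gene, with a black bar at the median and dotted lines at 2-fold in either direction. The members (top, median 2.58) and the other APC/C substrates (median 1.88) lie to the right, while the APC/C core, SCF core and most genes of G1/S and replication lie between the dotted lines.

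Genes listed as transcription regulators of G2/M genes, a list that also holds the CDK inhibitor gene Cdkn1a, were mostly within 2-fold. Of 18 measured, 4 were at least 2-fold higher, 0 were lower, and the median was 0.32. Foxm1, the transcription factor that joins MuvB on G2 promoters, had 2.38 ± 0.21 from its brightest probe and 2.47 from its other. Mybl2, which encodes B-Myb, had 1.02 ± 0.20 from its brightest probe and 0.68 from its other. The 2 remaining are known for the opposite role, Cdkn1a (2.32 ± 0.20), which encodes the CDK inhibitor p21, and Rbl2 (1.80 ± 0.20), which encodes the pocket protein p130 of resting cells. The 3 subunit genes of NF-Y, Nfya (0.34 ± 0.20), Nfyb (0.09 ± 0.20) and Nfyc (-0.52 ± 0.20), named after their values were seen, had values of both signs.

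Genes of the preceding cell cycle stage had values around 0. Of 23 G1/S and replication genes measured, 3 were at least 2-fold higher and 1 was lower, with a median of 0.11. The higher ones were Tk1 (2.36 ± 0.20), whose enzyme the APC/C also destroys, Rrm2 (1.24 ± 0.20), whose enzyme subunit cyclin F marks for destruction, and Ccne1 (1.09 ± 0.20). The lower one was Ccnd2 (-1.14 ± 0.20), which encodes a G1 cyclin. The 6 replicative helicase genes Mcm2 to Mcm7 ranged from -0.44 to 0.07. Mki67, whose protein is a marker of proliferating cells, had 3.10 ± 0.20, or 8.55-fold. By distance between pairs of levels on the 2 arrays, the genes nearest to the members' median were Prxl2a (0.06), Trib3 (0.30), Aldoc (0.37), H3c13 (0.38) and H2bc1 (0.42), a likeness that rests on 2 arrays only.

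CD4 T cell markers were bright on both arrays, but markers of other cell types were also above background, and Siglech was as bright as the T cell markers. All 7 CD4 T cell markers were measured, with differences from -0.92 (Cd5) to 0.90 (Cd3d) and a summed level of 781 on the co-culture array and 757 on the naive-only array, as multiples of the 75th percentile. B cell markers were lower in 6 of 6 measured genes, with a summed level of 8.05 in co-culture and 34.3 in naive-only, led by Ms4a1 (-5.03 ± 0.22, or -4.39 with normexp correction) and Fcer2a (-2.86 ± 0.31, or -1.54 with normexp correction). The smallest of the 6, Cd22 (-1.05 ± 0.25), fell short of 2-fold with normexp correction (-0.57). Pax5 and Blk exceeded background in the naive-only culture alone. For Blk the co-culture level was 5.86-fold lower as reported, but normexp correction gave -1.15 (log2), so 5.86-fold is not a minimum. For Pax5 the naive-only level lay below the lowest level called above background in co-culture, so no difference is shown. Dendritic cell markers had differences of -2.87 (Flt3, -1.47 with normexp correction) to -0.12 over 4 genes, with summed levels of 150.5 in co-culture and 164 in naive-only. Siglech, with log2 levels of 7.23 in co-culture and 7.35 in naive-only, made up nearly all of both sums. Those levels, from 1 probe, lay above those of Cd4 (5.90 in co-culture, 5.54 in naive-only). Of 6 macrophage markers, 5 had negative differences and 2 were at least 2-fold lower, Cd14 (-1.71 ± 0.21) and Lyz2 (-1.12 ± 0.36, or -0.38 with normexp correction). The macrophage list summed to 16.3 in co-culture and 15.7 in naive-only, most of it Itgam, with log2 levels of 3.52 in co-culture and 3.15 in naive-only. Of the erythroid precursor markers, which would mark another dividing spleen cell, Klf1 and Alas2 were above background on neither array, Car1 was lower (-1.14 ± 0.35, or -0.41 with normexp correction) and Epor was higher (2.42 ± 0.23, or 1.64 with normexp correction). The CD8 T cell list summed to 0.641 in co-culture and 0.770 in naive-only, and the plasma cell list to 10.2 in co-culture and 20.0 in naive-only. The granulocyte list summed to 15.8 in co-culture and 14.4 in naive-only, and Epor and Car1 together to 1.01 in co-culture and 0.354 in naive-only. The granulocyte sums leave out Mpo, which exceeded background in the co-culture alone. Its co-culture level was 3.95-fold above the lowest level called above background in naive-only. Normexp correction gave a difference of 1.22 (log2), so 3.95-fold is not a minimum. Of 3 natural killer markers, 0 exceeded background in co-culture and 2 did in naive-only, Ncr1 and Klra8. Their naive-only levels were 2.38-fold and 1.57-fold above the lowest level called above background in co-culture. Normexp correction gave differences of -0.76 for Ncr1 and -0.30 for Klra8. Whether these differences in cell makeup had a part in the values of the mitotic genes was not tested.

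Under 9 other ways of processing, each member was measured in 8 or 9 of them, and all 88 resulting differences were at least 2-fold higher in the co-culture. All of them reuse the same 2 arrays, and several could hardly move a member. Both changes to the dim-probe filter left the value of each member they kept as reported. Averaging over probes could move only the 2 members with more than 1 probe, and no member spot was marked. The count of 88 is therefore not a replication.

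**Figure D5:**
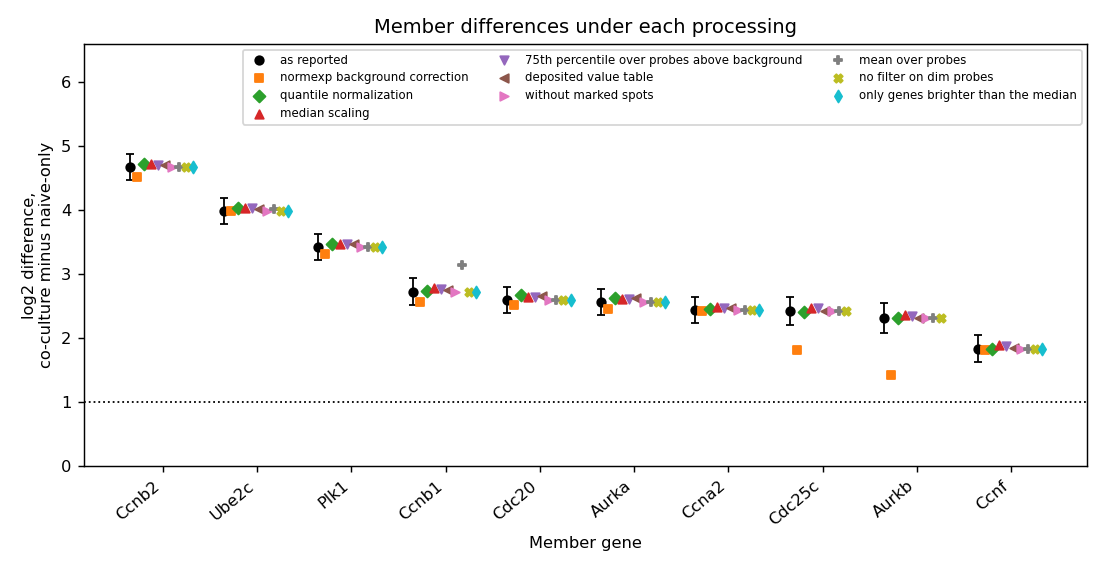
log2 difference (co-culture minus naive-only) of each member as reported (black, with its technical error) and under each other processing (coloured marks), with a dotted line at 2-fold. All marks lie above the dotted line, and the normexp marks of Aurkb (1.43) and Cdc25c (1.81) lie furthest from the values as reported.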

How the data were processed

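Total RNA was amplified before labelling (Ovation RNA Amplification System V2), and the cDNA carried Cy3, per the labels' protocols. Per the file headers, the deposited spot intensity was made with Agilent Feature Extraction 10.7.1.1, with background subtracted and spatial trends removed. Version 9.5.1.1 stands in the submitters' processing notes. The deposited value table holds linear intensity whose medians are equal on both arrays, made by a normalization not given in the sources used here. The deposited flags of spots above background and of marked spots are 0 or 1 values, read per the file headers.

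The value reported is log2 of the processed signal, less that of the 75th percentile of 55681 noncontrol probes on the same array (301.3 units in co-culture, 299.4 in naive-only); 45.1% of probes were well above background in co-culture and 46.2% in naive-only. A gene took its probe of highest mean level and was measured where that probe was above background on both arrays. Of 36743 probes with a gene name, 27235 matched RefSeq by accession, which changed 2838 symbols, and the others kept the name in the file. Coordinates of probes refer to mm9, as deposited, and no exon annotation was used here. With 1 array per group, the number of arrays limits precision and no p-value was computed. Not every marker result is reported here.

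The members and lists were chosen with earlier results of these data known. Named were all members, up to 4 genes past 2-fold per pathway list, 9 genes set whatever their value, up to 2 genes per marker list and the 5 genes nearest in level. Further genes of the marker lists, such as Siglech, Itgam, Blk and Mpo, were named outside that rule with their values known. The gene-level code was tested on simulated data. Python 3.11.15, numpy 2.4.6, pandas 2.3.3, matplotlib 3.10.9, R 4.3.3 and limma 3.58.1 were used. Alternatives changed the background correction, scaling, marked spots, probe choice, dim-probe filter and source of values.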

Additional observations from a re-analysis of the deposited data

How the results depend on the processing

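All 10 members stayed at least 2-fold higher under the 8 of 9 alternatives that kept all of them; with only genes brighter than the median, Aurkb and Cdc25c dropped out and 8 of 8 were higher. The members' median ranged from 2.49 (normexp) to 2.66 (brighter genes). Of all measured genes, 2458 were higher and 2155 lower with no filter on dim probes, and 363 higher and 193 lower among brighter genes. With normexp 797 were higher and 529 lower, beside 1110 higher and 796 lower as reported. With no filter the median of all genes was 0.11, and the median of the CDK1 list was 0.27. With brighter genes only, counts of higher genes were 5 for Polo and Aurora relatives (median 2.001), 7 for other APC/C substrates (median 2.23) and 2 for transcription regulators, from fewer genes tested. The 10 members kept their sign; other single genes were not followed through every alternative. No array could be left out, since each group has 1. No paired analysis was possible because each group has 1 array.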

Other observations

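The promoter letters seen in the members were also looked for in the other measured genes. Of 9790 measured genes outside the members with a promoter window in the RefSeq table, 816 (8.34%) passed 2-fold upward in the co-culture and 495 (5.06%) passed it downward. Of the 592 among them with both TTTGAA and CCAAT in a window, 96 (16.2%) were higher and 28 (4.73%) lower. Of the 225 with TTTGAA and 2 or more CCAAT, 54 (24.0%) were higher and 7 (3.11%) lower, but their median difference was 0.10, beside -0.04 for all 9790, so most genes with these letters were within 2-fold. Which of these genes act in mitosis was not looked up. By list, both TTTGAA and CCAAT were held by 2 of 11 genes with a window among CDK1 partners and regulators, 1 of 8 Polo and Aurora relatives, 0 of 13 APC/C core subunits and 3 of 6 other APC/C cofactors and inhibitors. They were held by 5 of 12 other APC/C substrates, 0 of 3 SCF core genes, 3 of 14 transcription regulators and 2 of 19 G1/S and replication genes. These list counts take in listed genes that were not measured, such as Cenpf. Genes with both included some within 2-fold, such as Bub3, Skp2, Nfyc and Mcm2.

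Outside the cell cycle lists, Prdm1, which encodes the plasma cell and effector T cell factor Blimp-1, was higher (1.84 ± 0.20) although Jchain, another gene of the plasma cell list, was lower (-3.20 ± 0.21).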
